A study of Schmidtea mediterranea with 6 samples.

Results

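Smed-exoc3, endophilin B and the channel gene TPCN2 are 3 of the 30917 gene models counted in planarian X1 cells, and all encode proteins of membrane traffic. They are the RNAi target and a pair of genes selected on their values in the same contrast, exoc3(RNAi) against gfp(RNAi), so their levels and fold changes are given as a description and no test is applied to them. In exoc3(RNAi) libraries Smed-exoc3 and endophilin B were lower and TPCN2 was higher, each without overlap between the groups.

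The libraries were made from asexual *Schmidtea mediterranea*, a flatworm that replaces its tissues from dividing stem cells called neoblasts. Starved animals of 5 to 5.5 mm were injected ventrally with double-stranded RNA on 3 consecutive days, and a second round of 3 days began 12 days after the first. The exoc3(RNAi) animals received double-stranded RNA against Smed-exoc3, made from a single stretch of that gene, and the gfp(RNAi) controls received double-stranded RNA against gfp, which has no counterpart in the planarian genome. X1 cells, the mitotically active and irradiation-sensitive fraction that holds the neoblasts, were sorted by flow cytometry on the same day of the injection scheme in both groups, from several pooled animals per sample, with 3 libraries per group described as biological replicates.

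The exocyst is a multi-subunit complex that tethers secretory vesicles to the plasma membrane before they fuse, and Exoc3 (Sec6 in yeast) is one of its core subunits. The planarian gene is related to mouse *Tnfaip2*, a member of the Sec6 family. In animals, endophilin B proteins carry a BAR domain that binds and curves membranes and act on mitochondria, endosomes and forming autophagosomes. Two-pore channels such as TPCN2, described in the study as a two-pore segment channel, sit in the membranes of late endosomes and lysosomes and release cations from them, and in mammals TPCN2 opens in response to the phosphoinositide made by the lipid kinase PIKFYVE.

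Smed-exoc3 is the gene that was targeted, so the oligonucleotides that define the double-stranded RNA and the RT-qPCR assay of the study are shown where their orientation is stated. The forward primers, copied from the study's list of oligonucleotides and written 5′ to 3′ in lower case, are of 20 and 23 bases. Where they lie in the gene was not analysed here.
dsRNA template, forward: tcacgagcagataagtgact
RT-qPCR, forward: tggatcttaccgagtggatgatt

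The libraries held 28897363 to 37525894 assigned reads and detected 18686 to 19115 gene models. With edgeR's quasi-likelihood test and a limit of 0.05 on the adjusted p, 53% of the 14700 genes that passed the filter on low counts were called, 25.8% as higher and 27.1% as lower in exoc3(RNAi), and the libraries of the groups did not overlap for 60.8% of them. These shares are the background against which any count is to be read. Within groups, the chi-square per degree of freedom between the counts of library pairs was 1.35 to 8.18, and the largest values, 8.18 and 7.46, were those of exoc3(RNAi) replicate 3 with replicates 1 and 2. The fold changes and spreads of the members are therefore also given without it. The neoblast genes of a marker list, smedwi-2, smedwi-3, vasa-1, vasa-2, cyclin B and MCM6, were present in all libraries, with a summed level of 8479 to 9297 CPM in exoc3(RNAi) and 10930 to 11120 CPM in gfp(RNAi). Of these 6 genes 4 were lower, and 2, vasa-2 (0.25 on the log2 scale) and cyclin B (0.21), were higher, and smedwi-2 and smedwi-3 carried most of the sum. CPM are read counts scaled so that the TMM-adjusted total is the same in every library.

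Smed-exoc3 (SMESG000022604.1) was reduced in all exoc3(RNAi) libraries and was still detected in each of them. It had 1212, 916 and 1494 reads in exoc3(RNAi) replicates 1, 2 and 3, against 2247, 2289 and 2420 reads in gfp(RNAi) replicates 1, 2 and 3. In CPM these were 31.9, 31.2 and 42.5 CPM in exoc3(RNAi) and 70.2, 74.0 and 72.7 CPM in gfp(RNAi). All exoc3(RNAi) libraries lay below all gfp(RNAi) libraries, and replicate 3 was the highest of the exoc3(RNAi) group. The means were 35.2 ± 6.31 CPM in exoc3(RNAi) and 72.3 ± 1.96 CPM in gfp(RNAi) (SD, n = 3 each), a log2 fold change, exoc3(RNAi) over gfp(RNAi), of -1.04 with a standard error (SE) of 0.09. Against the gfp(RNAi) mean, the remaining level was 44.1% in replicate 1, 43.1% in replicate 2 and 58.7% in replicate 3. The log2 fold change became -1.20 when replicate 3 was left out. The fold of the closest pair of libraries, the lowest gfp(RNAi) over the highest exoc3(RNAi) one, was 1.65. In bulk samples such as these, fewer cells of a type and less RNA per cell cannot be told apart. The level measured here is that of mRNA, and the Smed-exoc3 protein was not measured in these libraries.

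Endophilin B (SMESG000043769.1) was lower in exoc3(RNAi) by more than the RNAi target itself, a difference that was not tested. It had 461, 345 and 366 reads in exoc3(RNAi) replicates 1, 2 and 3, against 1106, 1040 and 1233 reads in gfp(RNAi) replicates 1, 2 and 3. The scaled levels were 12.1, 11.7 and 10.4 CPM in exoc3(RNAi) and 34.5, 33.6 and 37.1 CPM in gfp(RNAi). The groups were separated by a wide gap, with a 2.77-fold distance between their closest libraries, and the lowest library was exoc3(RNAi) replicate 3. The means were 11.4 ± 0.911 CPM in exoc3(RNAi) and 35.1 ± 1.77 CPM in gfp(RNAi) (SD, n = 3 each), so that the mean level was 32.6% of that in gfp(RNAi). The log2 fold change was -1.62 (SE 0.07), and it was -1.55 with replicate 3 of exoc3(RNAi) left out. Among the 14700 tested genes only 17 had a more negative value, whereas 172 had a more negative value than Smed-exoc3.

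TPCN2 (SMESG000058852.1) was the member that was higher in exoc3(RNAi). It had 359, 274 and 381 reads in exoc3(RNAi) replicates 1, 2 and 3, against 107, 100 and 128 reads in gfp(RNAi) replicates 1, 2 and 3. The scaled levels were 9.45, 9.33 and 10.8 CPM in exoc3(RNAi) and 3.34, 3.23 and 3.85 CPM in gfp(RNAi). Every exoc3(RNAi) library exceeded every gfp(RNAi) library, the closest pair by 2.43-fold, and exoc3(RNAi) replicate 3 was the highest of all. The means were 9.87 ± 0.831 CPM in exoc3(RNAi) and 3.47 ± 0.327 CPM in gfp(RNAi) (SD, n = 3 each), a 2.84-fold difference of the means with a log2 fold change of 1.50 (SE 0.10). Leaving out exoc3(RNAi) replicate 3 gave 1.43. A more positive value was found for 174 of the tested genes. Its counts were the smallest of the 3 members, and the 95% exact Poisson intervals of the single libraries, which cover counting error only, still did not overlap between the groups.

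**Figure D1:**
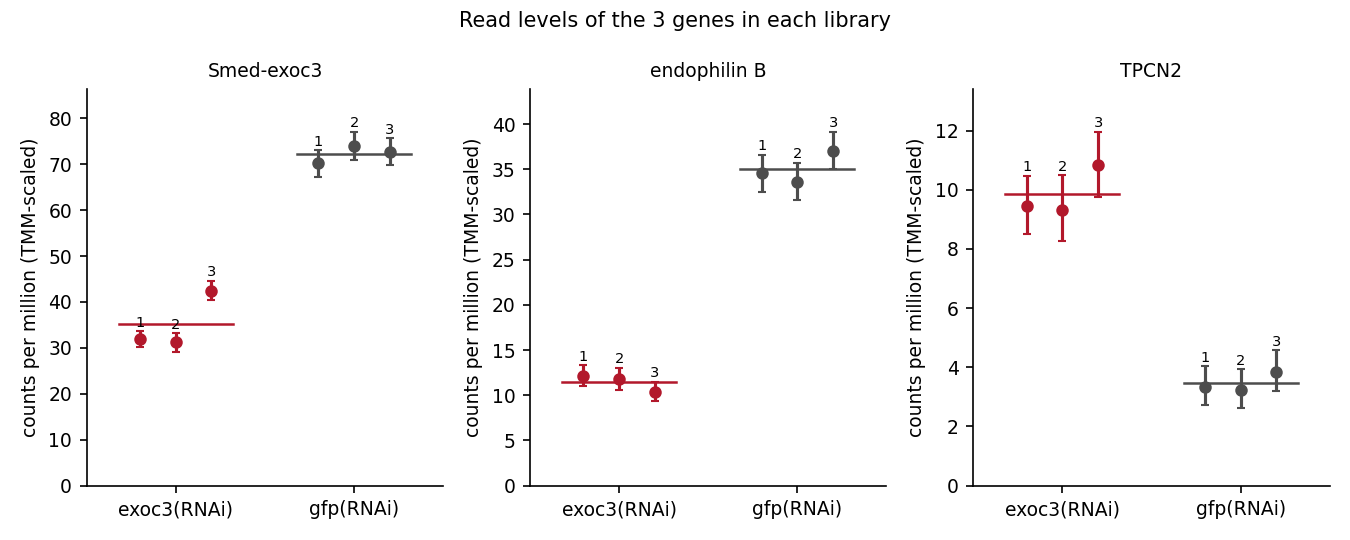
Levels of Smed-exoc3, endophilin B and TPCN2 in CPM of the TMM-scaled library, exoc3(RNAi) left and gfp(RNAi) right in each panel. Points are single libraries numbered by replicate, vertical bars are 95% exact Poisson intervals of the reads and horizontal lines are group means; exoc3(RNAi) replicate 3 is the highest of its group for Smed-exoc3 (42.5 CPM) and TPCN2 (10.8 CPM) and the lowest for endophilin B (10.4 CPM).

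Set among all tested genes, the changes of the members were large. The median absolute log2 fold change over the 14700 genes was 0.25 and the median signed value, which TMM scaling holds near 0, was 0.02. The absolute change of Smed-exoc3 exceeded that of 95.6% of the genes. The corresponding shares were 98.9% for endophilin B and 98.6% for TPCN2. These positions are part of what singled the genes out and carry no test.

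**Figure D2:**
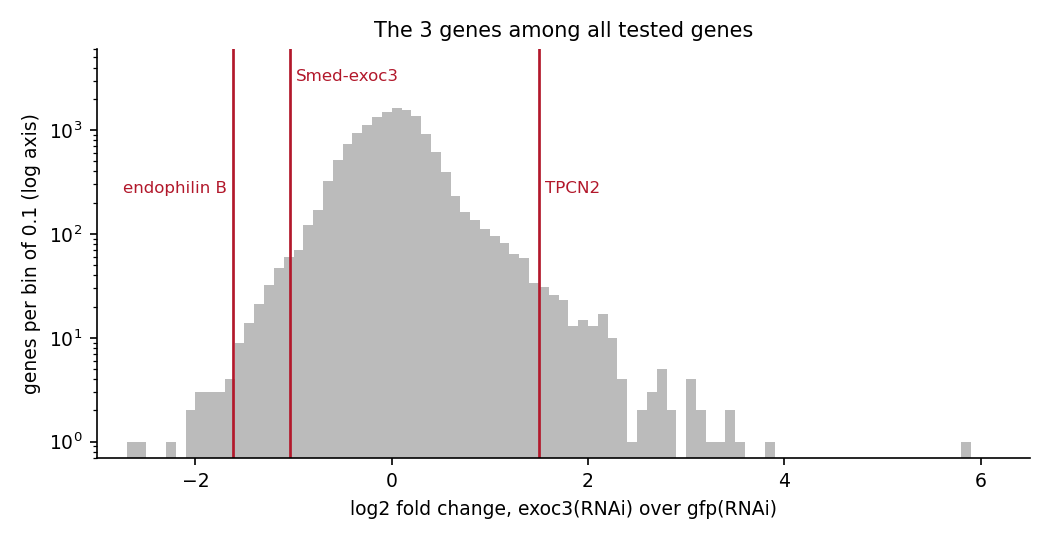
Histogram of the log2 fold change, exoc3(RNAi) over gfp(RNAi), of the 14700 tested genes in bins of 0.1, with the number of genes on a log axis. The vertical lines mark endophilin B at -1.62 and Smed-exoc3 at -1.04 on the lower side and TPCN2 at 1.50 on the higher side.

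The spread of the members within each group is also given as a description, since genes selected by a rank on p are in part selected on their spread. For Smed-exoc3 the coefficient of variation was 17.9% in exoc3(RNAi) and 2.72% in gfp(RNAi), where read counting alone gives 2.88% in exoc3(RNAi) and 2.08% in gfp(RNAi). The spread of the targeted gene was thus close to counting error in gfp(RNAi) and above it in exoc3(RNAi), where it rested on replicate 3. Between exoc3(RNAi) replicates 1 and 2 alone the coefficient of variation was 1.59%, below the counting error of 3.07% for that pair. Replicate 3 was left out after the data were seen, and leaving out the most distant of 3 libraries lowers the spread by construction. With all 3 libraries, the standard deviation of Smed-exoc3 on the log2 scale in exoc3(RNAi) was 0.25. This was larger than that of 99.1% of 1832 genes of similar mean abundance over all libraries, whose median was 0.05. Without replicate 3 it was 0.02. In gfp(RNAi) its standard deviation of 0.04 was larger than that of 52% of the same genes.

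Endophilin B and TPCN2 had smaller coefficients of variation among the exoc3(RNAi) libraries than the targeted gene, and replicate 3 was the most distant library for both. The coefficient of variation of endophilin B was 7.97% in exoc3(RNAi) and 5.05% in gfp(RNAi), with counting errors of 5.06% in exoc3(RNAi) and 2.98% in gfp(RNAi). That of TPCN2 was 8.42% in exoc3(RNAi) and 9.41% in gfp(RNAi), with counting errors of 5.44% in exoc3(RNAi) and 9.46% in gfp(RNAi). The gfp(RNAi) spread of the channel gene was thus no larger than read counting gives. Among genes of similar abundance, the standard deviation in exoc3(RNAi) ranked at the 85.1st percentile for endophilin B and at the 54.5th for TPCN2. Abundance was matched on the mean CPM over all libraries, which is above the exoc3(RNAi) level of endophilin B and below that of TPCN2. Counting error in exoc3(RNAi) can thus differ between a gene and its reference genes, and the ranks were not adjusted for this. Between exoc3(RNAi) replicates 1 and 2 alone the coefficients of variation were 2.29% for endophilin B and 0.896% for TPCN2, below the counting errors of 4.98% for endophilin B and 5.62% for TPCN2. Here too, leaving out the most distant of 3 libraries lowers the spread by construction.

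The exoc3(RNAi) libraries did not rank in the same way for the target and for the other members. Replicate 3, which kept the most Smed-exoc3 mRNA, was the library farthest from gfp(RNAi) for both endophilin B and TPCN2. On the log2 scale, Smed-exoc3 differed from the gfp(RNAi) mean by -1.18, -1.21 and -0.77 in replicates 1, 2 and 3. Endophilin B differed by -1.53, -1.58 and -1.75 in the same libraries. For TPCN2 the differences were 1.45, 1.43 and 1.64. Relative to replicates 1 and 2, replicate 3 was higher by 0.43 for Smed-exoc3, lower for endophilin B at -0.20 and higher by 0.21 for TPCN2, at the 92.4th, 11.5th and 82.4th percentile of all tested genes in that order. Of 7576 called genes without overlap between the groups, replicate 3 was farthest from gfp(RNAi) for 55.8%, against 22.5% for replicate 1 and 21.7% for replicate 2. It was nearest to gfp(RNAi), as for Smed-exoc3, for 25.5%. Endophilin B and TPCN2 shared with most of these genes that replicate 3 was the farthest, and with 3 libraries no relation across libraries was computed.

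**Figure D3:**
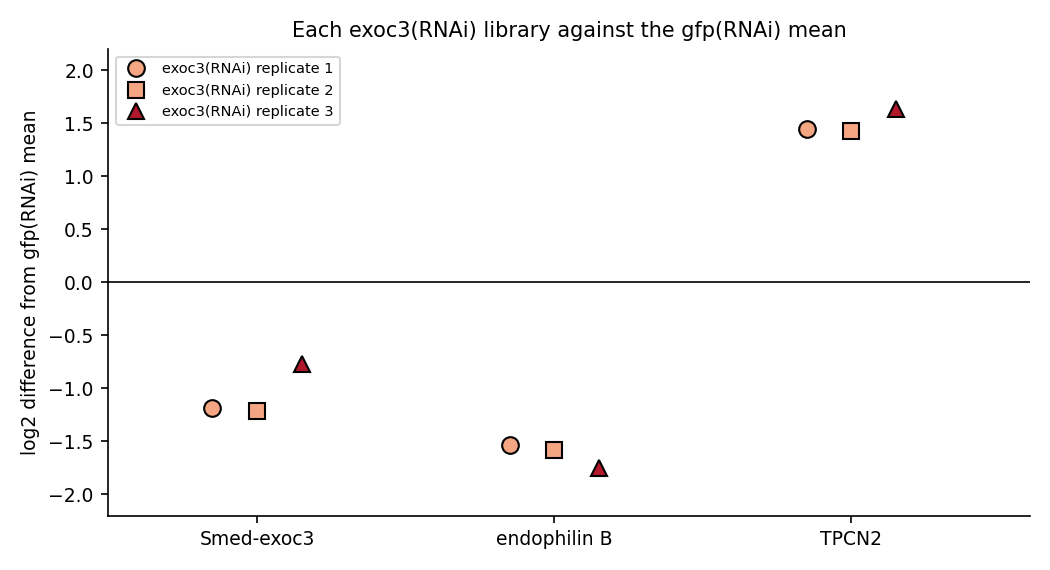
Difference of each exoc3(RNAi) library from the gfp(RNAi) mean in log2 CPM for the 3 members, with the horizontal line at no difference. Replicate 3, the dark triangle, is the nearest to the line for Smed-exoc3 (-0.77) and the farthest from it for endophilin B (-1.75) and TPCN2 (1.64).

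To place the members in their pathway, 49 other membrane traffic genes were picked by role from the descriptions that the study paired with identifiers. These descriptions mostly cover genes that ranked first by p in the study, so the finding that 49 of 49 were called in the fit across all genes, against 53% of all tested genes, is not independent evidence of a change in traffic genes. The calls, made by edgeR's quasi-likelihood test, put 8 above and 41 below gfp(RNAi), with a median log2 fold change of -0.43. None of the 49 had an absolute change as large as that of endophilin B or TPCN2, and 1, the lysosomal channel gene TRPML, exceeded the size of the change in Smed-exoc3. That last order reversed without exoc3(RNAi) replicate 3, at 1.09 for TRPML and -1.20 for Smed-exoc3, and the difference was not tested. Scaling by library size alone moved the median of all genes by 0.05 on the log2 scale, and no gene of the list changed its sign under any of the 12 alternative settings in which it was fitted, which were 11 for TRPML, removed by the filter at 10 CPM.

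Among tethering genes, the only other exocyst subunit of the list, SEC8 (SMESG000070793.1), was also lower. The list holds none of the remaining subunits, so the complex as a whole was not examined. For SEC8 the values of each library follow. Its levels were 44.8, 44.8 and 42.1 CPM in exoc3(RNAi) replicates 1, 2 and 3, against 64.7, 66.2 and 65.3 CPM in gfp(RNAi) replicates 1, 2 and 3. The groups did not overlap, and the change, at -0.58 on the log2 scale with an SE of 0.04 (edgeR adjusted p = 1.22e-07), was smaller than that of Smed-exoc3. All 5 tethers of the list, SEC8 and 4 others, were lower. They ranged between -0.60 for SCAT, a Vps54-like subunit of the GARP complex that receives endosomal vesicles at the Golgi (38.8 ± 2.07 CPM in exoc3(RNAi) and 58.6 ± 2.73 CPM in gfp(RNAi), SD, n = 3 each, edgeR adjusted p = 5.6e-07), and -0.30 for COG5, of the COG complex of the Golgi (edgeR adjusted p = 5.57e-05).

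Beside TPCN2 the list holds 1 other ion channel gene of the endolysosome, and it too was higher in exoc3(RNAi). TRPML (SMESG000015162.1), a mucolipin that, like TPCN2, releases cations from lysosomes and responds in mammals to the product of PIKFYVE, had 6.34, 6.16 and 7.36 CPM in exoc3(RNAi) replicates 1, 2 and 3, against 3.19, 2.78 and 2.86 CPM in gfp(RNAi) replicates 1, 2 and 3. The libraries of the groups did not overlap, and replicate 3 of exoc3(RNAi) was again the highest. On the log2 scale TRPML changed by 1.17 with an SE of 0.11 (edgeR adjusted p = 1.56e-06), beside 1.50 for TPCN2. Without exoc3(RNAi) replicate 3 it was 1.09. PIKFYVE (SMESG000051464.1), the kinase named above, went the other way, with 44.0, 42.9 and 37.1 CPM in exoc3(RNAi) replicates 1, 2 and 3 and 60.4, 62.2 and 57.2 CPM in gfp(RNAi) replicates 1, 2 and 3. All its exoc3(RNAi) libraries were below all gfp(RNAi) libraries, and the change was -0.54 on the log2 scale with an SE of 0.06 (edgeR adjusted p = 6.36e-06), or -0.46 when exoc3(RNAi) replicate 3 was left out. A gene with the domain of Vac14, the scaffold that holds PIKFYVE, was also lower, at 570.2 ± 22.4 CPM in exoc3(RNAi) and 719.1 ± 9.53 CPM in gfp(RNAi) (SD, n = 3 each, log2 fold change -0.33, edgeR adjusted p = 2.41e-06). The 2 channel genes thus lay above 0, and PIKFYVE and the Vac14 domain gene lay below it, the side of 41 of the 49 list genes. Since TPCN2 was selected on this contrast, the opposite signs are a description, and a relation between these genes was not tested.

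The 15 other endolysosomal genes, TRPML and PIKFYVE included, had a median log2 fold change of -0.48, with 12 lower and 3 higher. The largest decrease was that of VPS13B, a large lipid transfer protein of the Golgi that was listed with this group. Its level was 28.4 ± 3.02 CPM in exoc3(RNAi) and 46.6 ± 1.35 CPM in gfp(RNAi) (SD, n = 3 each). The change was -0.72 on the log2 scale with an SE of 0.06 (edgeR adjusted p = 9.51e-07). The 3 that were higher were TRPML, AP3S2, the small subunit of the AP-3 adaptor that sorts proteins to lysosomes (0.31, edgeR adjusted p = 0.00863), and VPS13D, another lipid transfer protein (0.26, edgeR adjusted p = 2.57e-05), the last 2 named after their values were seen. AP3S2 lost its call when gfp(RNAi) replicate 1 was left out (adjusted p = 0.051).

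Endophilins of the A type act with clathrin and dynamin at the plasma membrane, whereas those of the B type act on internal membranes. Of the 7 clathrin and endocytosis genes, 6 were lower and 1 was higher in exoc3(RNAi), with a median log2 fold change of -0.38, beside -1.62 for endophilin B. The clathrin heavy chain gene CLTC was at 785.9 ± 13.7 CPM in exoc3(RNAi) and 987.2 ± 13.9 CPM in gfp(RNAi) (SD, n = 3 each), or -0.33 on the log2 scale with an SE of 0.03 (edgeR adjusted p = 7.29e-07). The subunits of the AP-2 adaptor, which links clathrin to cargo, differed in sign. AP2A2, the alpha subunit, was lower (-0.38, SE 0.04, edgeR adjusted p = 2.53e-06), and AP2M1, the mu subunit that binds cargo, was higher at 184.2 ± 1.59 CPM in exoc3(RNAi) and 147.9 ± 5.48 CPM in gfp(RNAi) (SD, n = 3 each, log2 fold change 0.32, edgeR adjusted p = 5.84e-06). The largest decrease was -0.66, in a gene described as a dynamin-associated protein (edgeR adjusted p = 5.01e-08).

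Genes of the early secretory pathway and of the small GTPases were also mostly lower. Of 11 genes of the early secretory pathway, 8 were lower and 3 were higher, with a median of -0.26 on the log2 scale. They ranged between -0.63 for COPG2, a COPI coat subunit (edgeR adjusted p = 6.49e-08), and 0.24 for RAB1B, a GTPase of transport to the Golgi (edgeR adjusted p = 0.000705). COPB2 at 0.12 and COPZ1 at 0.19, both COPI coat subunits named after their values were seen, were the others that were higher. COPB2 was not called without gfp(RNAi) replicate 1 (adjusted p = 0.0681). Of 11 small GTPases and their regulators, 10 were lower, with TBC1D30, a Rab GTPase-activating protein, at -0.79 (edgeR adjusted p = 4.13e-09). The exception was CDC42, a small GTPase that regulates the exocyst in yeast, at 0.21 (edgeR adjusted p = 0.00255).

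**Figure D4:**
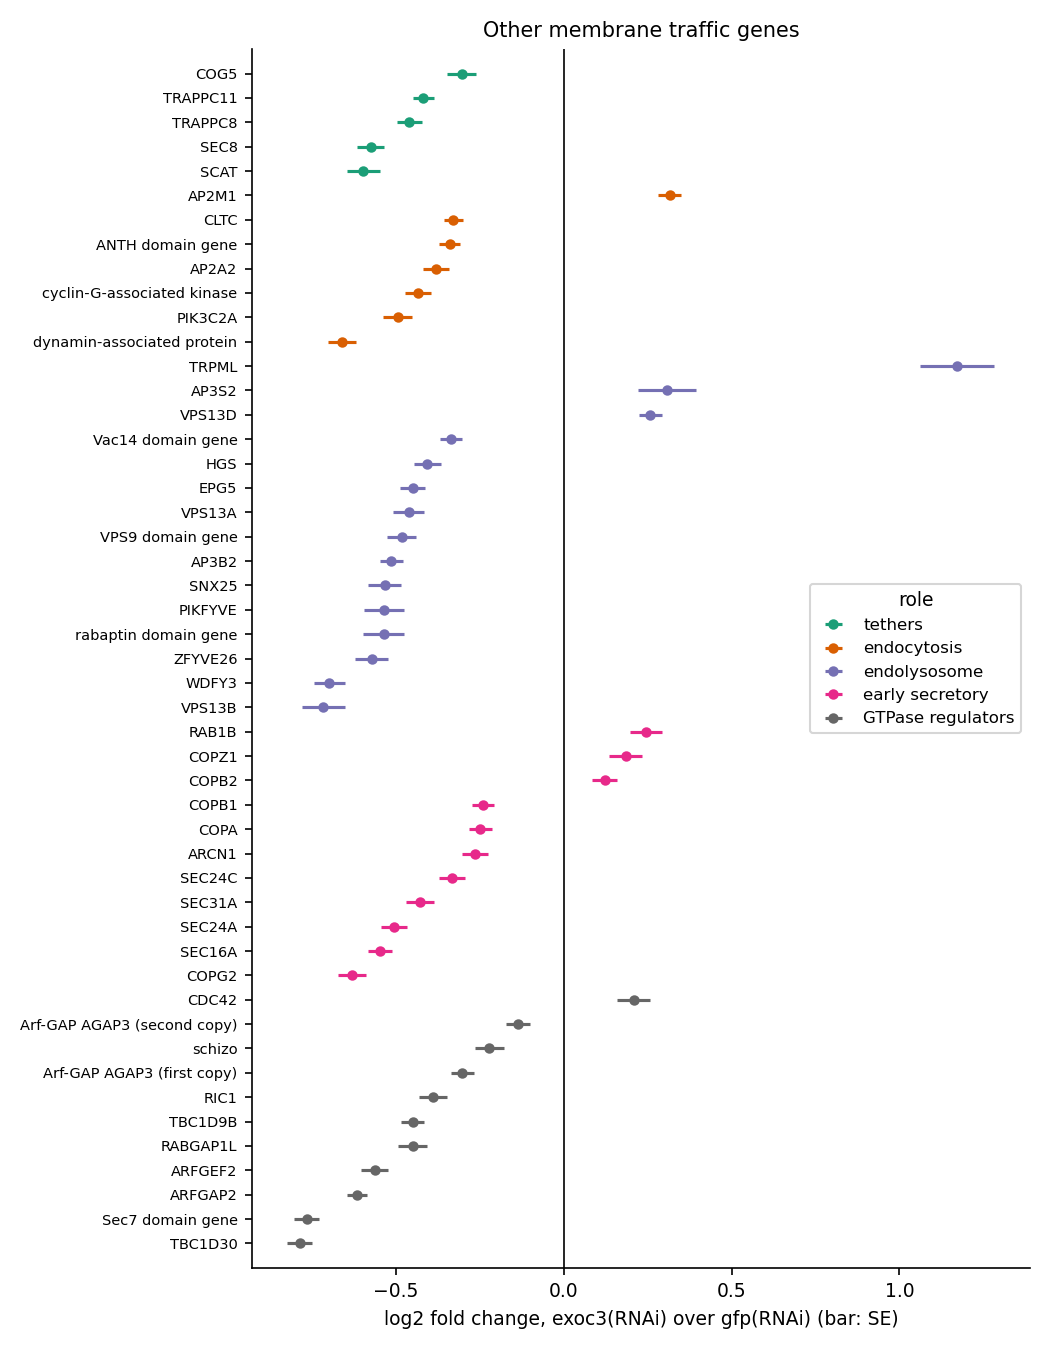
Log2 fold change, exoc3(RNAi) over gfp(RNAi), of the 49 other membrane traffic genes with their standard errors, ordered within 5 roles shown by colour. Of these genes 41 lie left of 0 and 8 right of it, TRPML farthest at 1.17 and TBC1D30 lowest at -0.79.

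The libraries of the groups did not overlap for any of the 49 genes, where the background share is 60.8%, and the way the genes were picked favours such genes. Replicate 3 of exoc3(RNAi) was the farthest from gfp(RNAi) for 36 of the 49 (73.5%), as it was for endophilin B and TPCN2, where the background share given above for called genes without overlap is 55.8%. By role this held for 13 of 15 endolysosomal genes, 9 of 11 GTPase genes, 5 of 7 endocytosis genes, 4 of 5 tethers and 5 of 11 early secretory genes, the last a share (45.5%) below that background. The list's median log2 fold change was -0.42 when replicate 3 was left out and -0.43 with it.

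To find genes whose levels followed those of a member, profiles of log2 CPM, centred on their mean, were compared over the 6 libraries by their root mean square distance, with smaller values for closer profiles. The 3 nearest genes to Smed-exoc3 were SMESG000017187.1 (0.04), SMESG000053422.1, described as a homologue of human C16orf89 (0.04), and SMESG000027868.1, described as the tyrosine kinase BTK (0.06). A like fold change and a like order of libraries are what this measure selects, so both are given as a description. In all 3, as in Smed-exoc3, replicate 3 was the highest of the exoc3(RNAi) libraries, at 1.19 CPM for SMESG000017187.1, 7.10 CPM for SMESG000053422.1 and 34.8 CPM for SMESG000027868.1. Their log2 fold changes lay between -1.01 (SMESG000027868.1) and -0.99 (SMESG000053422.1), close to the -1.04 of Smed-exoc3.

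The genes nearest to endophilin B were SMESG000020813.1 (0.07), with a log2 fold change of -1.57, and a pair of epidermal progenitor markers, pmp-8 (SMESG000018472.1, 0.08) and pmp-4 (SMESG000042765.1, 0.10). The level of pmp-8 was 70.7 ± 4.96 CPM in exoc3(RNAi) and 203.9 ± 7.52 CPM in gfp(RNAi), and that of pmp-4 was 25.6 ± 2.24 CPM in exoc3(RNAi) and 87.1 ± 1.64 CPM in gfp(RNAi) (SD, n = 3 each). The log2 fold changes of -1.53 for pmp-8 and -1.77 for pmp-4 lay on either side of that of endophilin B. For TPCN2 the nearest were SMESG000010252.1 (0.08), SMESG000071517.1 (0.09) and SMESG000058949.1 (0.10), for which no description was used, with log2 fold changes of 1.39, 1.58 and 1.47. Between the members the distances were 0.36 for Smed-exoc3 and endophilin B, 1.28 for Smed-exoc3 and TPCN2 and 1.57 for endophilin B and TPCN2, so that none of them was among the nearest genes of another.

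The marker lists of other cells were chosen with earlier results of these data known, so their counts are not independent evidence. The 6 epidermal progenitor markers, pmp-4, pmp-8, prog-1, agat-1, agat-2 and odc-1, were all called lower, against 27.1% of all tested genes. Their sum was 657.2 to 665.3 CPM in exoc3(RNAi) and 1433 to 1463 CPM in gfp(RNAi), beside the lower endophilin B. Most of this sum was carried by agat-1 and agat-2. For prog-1, unlike endophilin B, exoc3(RNAi) replicate 3 was the library nearest to gfp(RNAi). None of the 6 markers was at 0. Their part in the level of endophilin B was not tested.

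Beside TPCN2 and TRPML are set 11 genes of lysosomal lumen proteins, which are also high in phagocytic and gut cells. All 11 were called higher, against 25.8% of all tested genes. The list was chosen with earlier results of these data known, so this count is not independent evidence. These genes include saposins, progranulin, cathepsins A and B, NPC2 and alpha galactosidase A. They summed to 225.6, 229.4 and 253.4 CPM in exoc3(RNAi) replicates 1, 2 and 3, against 71.1, 65.9 and 63.8 CPM in gfp(RNAi) replicates 1, 2 and 3. Replicate 3 of exoc3(RNAi), the highest for TPCN2, was also the highest for this sum, but not for every gene in it. Among the exoc3(RNAi) libraries, the second saposin copy and PSAP were lowest in replicate 3, and the first cathepsin A copy was highest in replicate 2. Replicate 3 was the farthest from gfp(RNAi) for 55.8% of the called genes without overlap, so its place is not particular to this list. The lumen genes had a median log2 fold change of 2.04, larger than the 1.50 of the channel gene, and its part in that result was not tested. Of the neuronal markers 5 of 6, and of the muscle markers 3 of 4, were called lower, against 27.1% of all tested genes. The exceptions were higher, the second synaptotagmin-1 copy at 0.33 and the first myosin heavy chain copy at 0.71 on the log2 scale. Neuronal markers summed to 258.2 to 268.2 CPM in exoc3(RNAi) and 310.4 to 318.8 CPM in gfp(RNAi). Muscle markers summed to 283.3 to 293.2 CPM in exoc3(RNAi) and 342.5 to 347.2 CPM in gfp(RNAi).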

How the data were processed

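The deposited values are raw read counts per gene model, 1 table per library. Per the labels and the study's methods, the authors made stranded mRNA libraries, sequenced single-end reads, used bcl2fastq 1.8.4, aligned with STAR 2.7.2b to the dd_Smes_g4 genome and counted unique reads on the reverse strand with featureCounts 1.6.5. Reads shared by near-identical copies were left out, which makes counts of such copies uncertain. In R 4.3.3, edgeR 4.0.16 was run on all 6 libraries with filterByExpr (minimum count 10), which left 14700 genes and removed 16217, TMM scaling and the quasi-likelihood F test without covariates (two-sided, Benjamini-Hochberg adjusted p under 0.05). All 3 members and all 49 list genes passed the filter. Standard errors came from the log2 fold change and F. Genes of similar abundance were those within 0.5 log2 units of a member's mean CPM over all 6 libraries. Before logs, 0.01 was added to CPM. The fit was tested on simulated data.

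The members and gene lists were chosen with earlier results of these data known. Named were the members, SEC8, TRPML, PIKFYVE, the Vac14 domain gene, CLTC, AP2A2, AP2M1, the highest and lowest called gene of each role, and the 3 nearest profiles of each member. Names are those the study paired with identifiers. Gene length and position were not analysed here. The CPM that were summed over markers or matched between genes are therefore not scaled for gene length, a limit on any comparison of levels between genes.

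Alternatives were library size alone, RLE size factors in edgeR, no filter, at least 10 CPM in 3 libraries, the DESeq2 1.42.0 Wald test, a replicate block, and leaving out each library. P-values weigh the difference between the groups against the spread between the pooled samples within them.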

Additional observations from a re-analysis of the deposited data

How the results depend on the processing

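The members kept their direction under every alternative run, over a log2 fold change of -1.20 to -0.96 for Smed-exoc3, -1.67 to -1.55 for endophilin B and 1.43 to 1.59 for TPCN2. The last could not be fitted at 10 CPM in 3 libraries, a filter that removed it. These extremes came from leaving out single libraries. The labels do not state whether equal replicate numbers pair the libraries. No shared deviation was seen, as the deviations of same-numbered libraries correlated at -0.01, 0.01 and -0.03, but this check cannot settle the pairing. A fit with the replicate block called 7642 genes, of which 7506 were among the 7784 called without it. Called genes numbered 5612 under the 10 CPM filter, 6371 with the DESeq2 Wald test and 6642 to 8115 without 1 library. Decreases made up 42.7% of calls when scaling used library size alone and 51.2% with TMM factors. Of the traffic list 47 to 49 genes were called, and 45 of 49 kept their call and direction under all 12 alternatives. TRPML kept its own under the 11 in which it was fitted, since the 10 CPM filter removed it. The exceptions were AP3S2 (0.29) and COPB2 (0.10) without gfp(RNAi) replicate 1, and the second AGAP3 copy with library size alone (-0.08, adjusted p = 0.0601), and the cause was not tested. Without exoc3(RNAi) replicate 3, an alternative chosen after seeing the data, the coefficient of variation in exoc3(RNAi) was 1.59% for Smed-exoc3, 2.29% for endophilin B and 0.896% for TPCN2, against 17.9%, 7.97% and 8.42% with it.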
